A study of Mus musculus with 7 samples.

Results

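The sites bound by the transcription factor Shox2 in the embryonic mouse palate were compared with those in the limb at the same embryonic stage, E12.5. The palate list held 15091 positions of 1 bp and the limb list held 33915 peaks, so 49006 of the 82921 regions in the 3 peak lists used here belong to the comparison. A palate position was called shared when it lay inside a limb peak, and palate-only otherwise. A limb peak was called shared when it held a palate position, and limb-only otherwise. The sites were mapped by ChIP-seq (chromatin immunoprecipitation followed by sequencing) on freshly dissected tissue. Both Shox2 libraries came from embryos labelled Shox2-HA, in which Shox2 carries the HA epitope tag, and both were precipitated with the same lot of an HA antibody. The third list, of Pbx in limb at E12.5 with an antibody against Pbx itself, holds 33915 peaks and served as a comparator of the same length and tissue as the limb Shox2 list. The labels do not say whether the tagged allele was on 1 or both copies of the gene, nor how many embryos were pooled. The other 4 libraries of the series (a later limb stage and a mix of both tissues for Shox2, and as controls an untagged Shox2+/+ mix and input) were not analysed here.

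Shox2 is a homeodomain protein, a class of transcription factor that binds short AT-rich DNA motifs, mostly in enhancers far from genes. In the limb it is known for its role in the mesenchyme of the proximal segment, where its loss shortens the upper limb bones. In the palate it is known from the mesenchyme of the anterior palatal shelves, and its loss leaves an anterior cleft. Pbx proteins are homeodomain partners of the TALE class that bind DNA together with other homeodomain factors and are widely expressed in embryonic mesenchyme. A peak list holds no expression, so the dissected tissues could not be checked against marker genes.

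Each tissue had 1 library, and the files give only positions, with no height, score or depth. No value below therefore has a replicate error or a test, and a difference between tissues cannot be told apart from a difference between libraries. Intervals are exact (Clopper-Pearson) 95% binomial intervals over sites. They cover counting error only and treat neighbouring sites as independent. No genome of the files' build, mm9, was used here, so no site sequence is printed and the genes in single windows are not named.

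Of the palate positions, 2150 were shared (14.2%, interval 13.7 to 14.8%) and 12941 were palate-only. Limb peaks cover 10.8 Mb, which is 0.408% of the 2637 Mb spanned by sites on the 20 chromosomes. The shared positions lay in 2129 limb peaks (6.28% of the limb list, interval 6.02 to 6.54%), of which 21 held 2 palate positions. With only the first 15091 limb peaks, in file order and equal in number to the palate list, 1391 palate positions were shared (9.22%). In that equal comparison 1371 of the limb peaks (9.08%) held a palate position. Since these lists are equally long and few peaks held 2 positions, the shares are near-equal by construction.

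Shared positions were not spread evenly within the limb peaks that hold them. The median distance to the centre of the limb peak was 61 bp (quartiles 28.5 and 107 bp), and 1410 of 2150 positions (65.6%, interval 63.5 to 67.6%) lay in the central 50% of the peak. A further 218 palate-only positions missed a limb peak by 50 bp or less, and 426 shared positions lay within 50 bp of an edge on the inside. The border between shared and palate-only thus runs through a group of near sites, although these make up only 1.68% of the palate-only positions. Limb peaks with a palate position were also wider, with a median of 333 bp (quartiles 234 and 489) against 257 bp (196 and 367) in limb-only peaks, and a wider peak has more room to hold a position.

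Sharing was most frequent at the top of both lists, while the distance of the unshared sites changed less. Neither file states that its order is a ranking. In the palate list the shared share was 32.4% in the first decile, 22.1% in the second, 11.5% in the fifth and 5.89% in the last. In the limb list it was 13.7% in the first decile, 5.43% in the fifth, 2.80% in the ninth and 3.74% in the last. Of the 1509 palate positions in the first decile, 489 lay in any limb peak. Of the same 1509, 141 (9.34%, interval 7.92 to 10.9%) lay in 1 of the first 10% of limb peaks. The 9.34% was measured against 10% of the limb list and the 32.4% against all of it, so they are not comparable. Palate-only positions had a median distance to the nearest limb peak of 19.5 kb in the first decile and 29.8 kb in the last. Limb-only peaks had medians of 45.0 to 63.4 kb to the nearest palate position, with 51.7 kb in the first decile and 49.6 kb in the last. The order of the list thus went with exact sharing more than with how near an unshared site lay to the other tissue's sites.

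**Figure D1:**
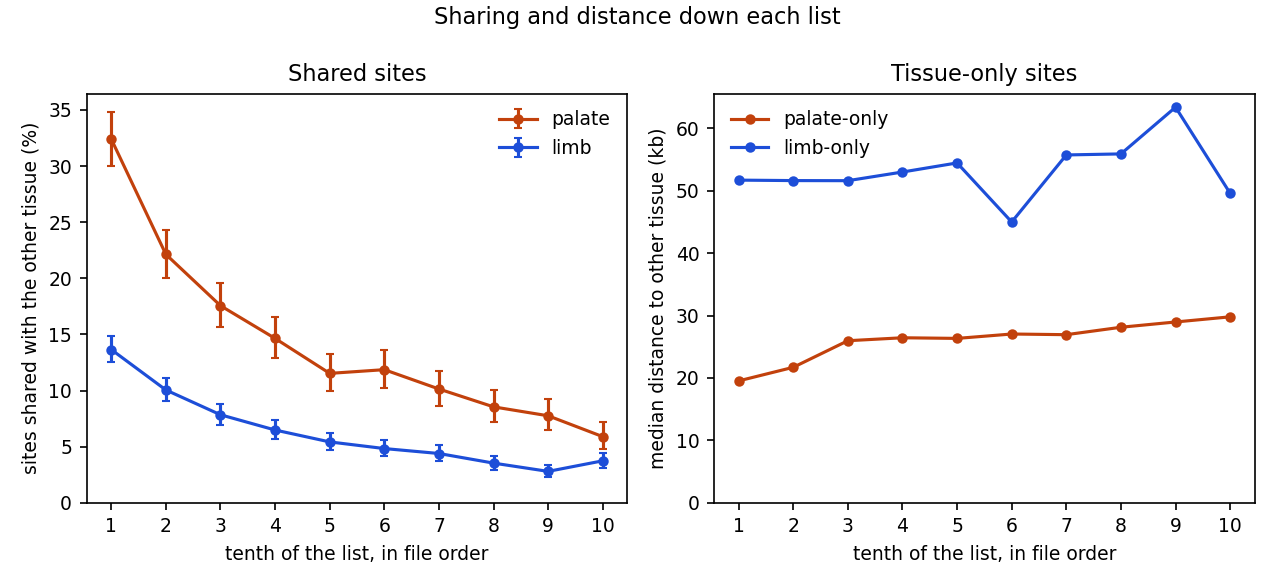
Left, the percentage of sites shared with the other tissue (points, with 95% binomial intervals) and, right, the median distance in kb of tissue-only sites to the nearest site of the other tissue, in each decile of the palate (orange) and limb (blue) list in file order. Sharing is 32.4% in the first and 5.89% in the last decile in palate and 13.7% and 3.74% in limb, while the median distances stay between 19.5 and 29.8 kb for palate-only and between 45.0 and 63.4 kb for limb-only sites.

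Most tissue-only sites lay more than 10 kb from any site of the other tissue. Palate-only positions had a median of 25.9 kb (quartiles 7.61 and 77.9 kb) to the nearest edge of a limb Shox2 peak. This distance exists for 12938 of them, since 3 lay on sequences with no limb peak. Of these, 8.53% lay within 1 kb, 29.6% (interval 28.8 to 30.4%) within 10 kb and 80.0% within 100 kb. At the far end, 278 positions (2.15%) had no limb peak within 500 kb. Limb-only peaks had a median of 53.1 kb (quartiles 16.7 and 148 kb) to the nearest palate position, 17.6% (interval 17.2 to 18.03%) lay within 10 kb, and 2345 (7.38%) had no palate position within 500 kb. The lists differ in length, and with the first 15091 limb peaks the same palate-only positions had a median of 60.6 kb. Such distances depend on how dense a list is, and the distance that density alone would give was not computed.

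Palate-only positions lay nearer to Pbx peaks than to Shox2 peaks of the limb, although both limb lists have the same number of peaks. Among the palate-only positions outside every Pbx peak, the median distance was 19.5 kb to the nearest Pbx peak (quartiles 7.51 and 46.6 kb) and 26.4 kb to the nearest limb Shox2 peak (8.15 and 78.3 kb). The median was shorter to Pbx on 16 of 20 chromosomes, the exceptions being chromosomes 3, 10, 13 and 18. The order was the opposite at short range. Within 1 kb, 7.17% of these positions had a limb Shox2 peak and 3.84% had a Pbx peak. Pbx peaks are also wider, with a median of 897 bp against 261 bp, which shortens a distance to an edge. A wider peak also takes in more of the closest positions, which these distances leave out.

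The nearest limb Shox2 peak lay in the first kb more often than in any later kb. Per kb of distance, 8.53% of the palate-only positions had their nearest limb peak in the first kb, 3.13% in the second, 2.55% per kb between 2 and 5 kb and 2.07% per kb between 5 and 10 kb. Over the same steps, the palate-only positions outside every Pbx peak gave 7.17%, 3.18%, 2.57% and 2.10% per kb to the nearest limb Shox2 peak. To the nearest Pbx peak these same positions gave flatter values, of 3.84%, 3.62%, 3.30% and 2.85% per kb. Seen from the limb, 4.39% of limb-only peaks had a palate position in the first kb, 1.82% in the second and 1.35% per kb between 5 and 10 kb. The first kb thus held more than 2 times the share of the second kb in both directions between the tissues, but 3.84% against 3.62% toward Pbx. The directions are not separate evidence, because a near pair can be counted from both ends. Shared sites of the other tissue also counted as nearest sites. Within 100 bp of an edge, the positions outside Pbx peaks gave 2.20% toward limb Shox2 and 0.352% toward Pbx. Positions inside a peak are left out, so the first kb starts farther from the centre of the wider Pbx peaks. How much of the contrast comes from peak width was not tested.

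**Figure D2:**
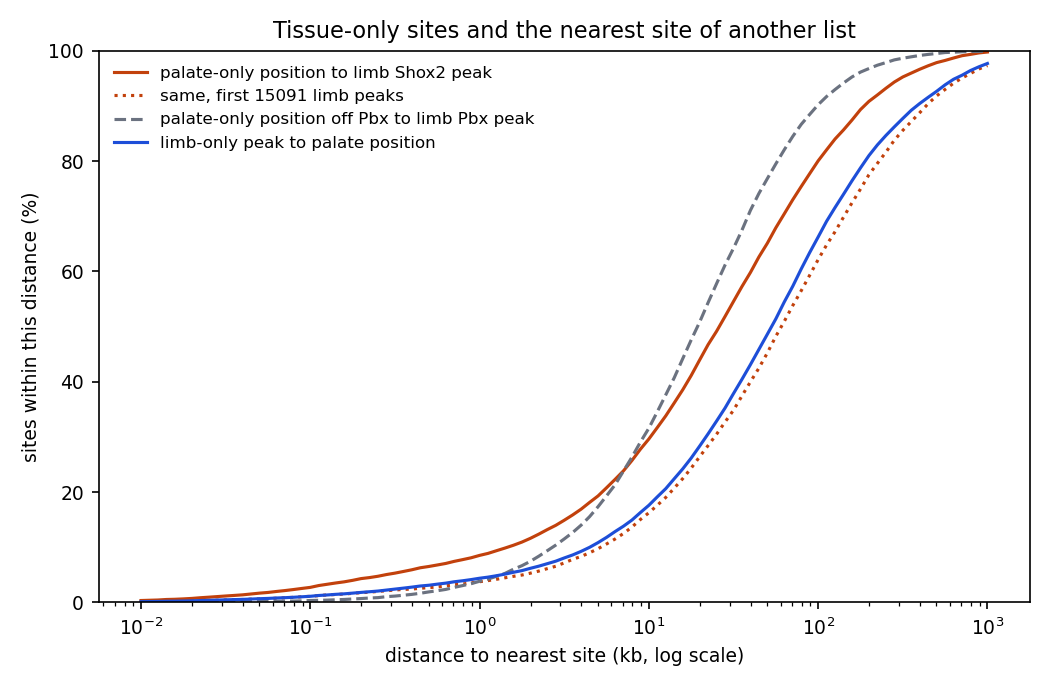
Percentage of tissue-only sites (y axis) whose nearest site of another list lies within a given distance (x axis, kb, log scale). The curve from palate-only positions to limb Shox2 peaks (solid orange, median 25.9 kb) starts higher and ends lower than the curve from palate-only positions off Pbx to limb Pbx peaks (dashed grey, median 19.5 kb); the limb-only curve (blue) has a median of 53.1 kb and the curve to the first 15091 limb peaks (dotted) 60.6 kb.

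At equal list lengths, palate sites were clustered to a similar degree as evenly taken limb peaks and slightly less than the first limb peaks. Neighbouring sites of 1 list were chained into a cluster when at most 20 kb apart. Of the palate positions, 17.9% (interval 17.3 to 18.5%) lay in 746 clusters of 3 or more, and 58.4% stood alone. Of all limb peaks, 41.8% lay in 3272 such clusters. With the first 15091 limb peaks the share was 19.7% (interval 19.03 to 20.3%), above the palate value, and with 15091 limb peaks taken evenly from the whole file it was 17.7% (17.05 to 18.3%), with an interval that overlaps it. The first limb peaks were also above palate with gaps of 10 kb (9.50% against 8.11%) and 50 kb (45.0% against 41.4%). The evenly taken ones gave 7.84% and 41.5%. The distance to the nearest other site of the same list gave the same picture. Its median was 28.6 kb in palate, 27.0 kb in the first 15091 limb peaks, 28.3 kb in the evenly taken ones and 10.8 kb in the whole limb list.

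Clustering in the palate did not separate shared from palate-only sites. The shared share was 13.9% among lone palate positions, 14.6% in pairs, 15.4% in clusters of 3 or 4 and 13.48% (interval 10.95 to 16.3%) in clusters of 5 to 9, so the intervals overlap. The median distance to the nearest other palate position was 27.1 kb for shared and 28.8 kb for palate-only positions. In the limb the shared share was 5.59% (interval 5.19 to 6.01%) among lone peaks, 6.58% in clusters of 3 or 4, 7.66% (6.94 to 8.42%) in clusters of 5 to 9 and 6.92% (5.65 to 8.38%) in clusters of 10 to 26. The intervals of lone peaks and of clusters of 5 to 9 do not overlap.

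Stretches with sites of both tissues often held no shared site, although most large clusters that held the other tissue's sites did hold one. When both lists were chained together with gaps of at most 20 kb, 46.0% of palate positions fell in domains with no limb peak, 23.4% in domains with a shared site and 30.6% in domains with sites of both tissues but none shared. For limb peaks these shares were 61.7%, 17.5% and 20.8%. Of the 115 palate clusters with 5 or more positions, 56 held a shared site, 74 held any limb peak, and 16 (13.9%) had no limb peak within 50 kb. Of the 957 limb clusters with 5 or more peaks, 357 held a shared site, 523 held a palate position, and 220 (23.0%) had none within 50 kb.

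The densest clusters show the range of these arrangements. Among the 5 clusters with the most palate positions, that at chr7:139358544-139405326 held 9 positions in 46.8 kb, with no limb peak in its span and 3 within 50 kb. The cluster at chr9:41392062-41481184 also held 9 palate positions, in 89.1 kb, among 11 limb peaks, and 3 of its positions were shared. At chr8:111059358-111123104, 9 palate positions lay beside 3 limb peaks, with 1 shared. The other clusters in this group, at chr1:93529740-93582538 and chr2:170703262-170763357, had 8 palate positions each, with 2 and 6 limb peaks and 1 and 3 shared positions. The largest palate clusters thus ran from none to 3 shared sites.

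Of the 5 clusters with the most limb peaks, 2 held no shared site. The cluster at chr16:72768120-72878822 had 23 limb peaks in 111 kb and 2 palate positions, and that at chr2:77694304-77784821 had 23 limb peaks in 90.5 kb and 3 palate positions, all of them between limb peaks. The largest, at chr1:165578663-165691350, had 26 limb peaks and 2 palate positions, and both positions were shared. At chr3:66447071-66567378, 24 limb peaks met 5 palate positions, with 3 limb peaks shared. At chr12:74551441-74640325, 20 limb peaks met 8 palate positions, and only 1 limb peak was shared. These 10 clusters were chosen for their size.

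At the scale of 1 Mb the lists favoured different parts of the genome. Windows with 10 or more sites of both lists together were compared by their share of each list, with 0.5 added to each count. Of 1841 such windows, 397 (21.6%) held at least 2-fold the share of the palate list and 475 (25.8%) at least 2-fold the share of the limb list. These are counts past a fold, with no test, and windows of few sites can pass it more easily. Among the 1003 windows with 20 or more sites, 14.96% passed toward palate and 23.3% toward limb. That filter counts the sites of both lists together, so it does not act alike in both directions. Windows toward palate held medians of 11 palate positions and 6 limb peaks, and those toward limb 2 and 18. At equal list length the excess toward limb was absent: with the first 15091 limb peaks, 314 of 1305 windows (24.1%) passed toward palate and 290 (22.2%) toward limb. The windows toward palate held 32.0% of all palate positions and 8.19% of limb peaks. Those toward limb held 7.50% of palate positions and 30.2% of limb peaks. No palate position lay in 92 of them, and no limb peak lay in 8 of the windows toward palate. The palate list is the shorter, which makes a window without palate positions more likely. The palate positions in windows toward palate were shared in 6.64% of cases, those in windows toward limb in 29.7% and those in the other windows in 18.1%. Windows toward limb hold more limb peaks per palate position by their definition, so this order is in part built in.

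The windows with the most palate positions among those toward palate were led by 29 to 30 Mb of chromosome 14, with 38 palate positions and 36 limb peaks, of which 2 palate positions were shared. The span 27 to 28 Mb of chromosome 12 held 32 palate positions, 28 limb peaks and 5 shared, and 38 to 39 Mb of chromosome 5 held 31, 8 and 3. The span 86 to 87 Mb of chromosome 17 held 29 palate positions, 20 limb peaks and 6 shared. Last came 172 to 173 Mb of chromosome 2, with 29, 6 and 1. In the last of these the palate share was 10.2-fold the limb share. On chromosome 14 it was 2.37-fold. Toward limb, 66 to 67 Mb of chromosome 3 held the most limb peaks, 93, with 19 palate positions, 9 of them shared. Next were 23 to 24 Mb of chromosome 14, with 73 limb peaks, 14 palate positions and 3 shared, and 87 to 88 Mb of chromosome 9, with 70, 12 and 6. The span 85 to 86 Mb of chromosome 4 held 65 limb peaks and 7 palate positions with 1 shared, a 3.89-fold limb share. In 32 to 33 Mb of chromosome 13 there were 61 limb peaks and 4 palate positions with 2 shared, a 6.08-fold limb share.

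**Figure D3:**
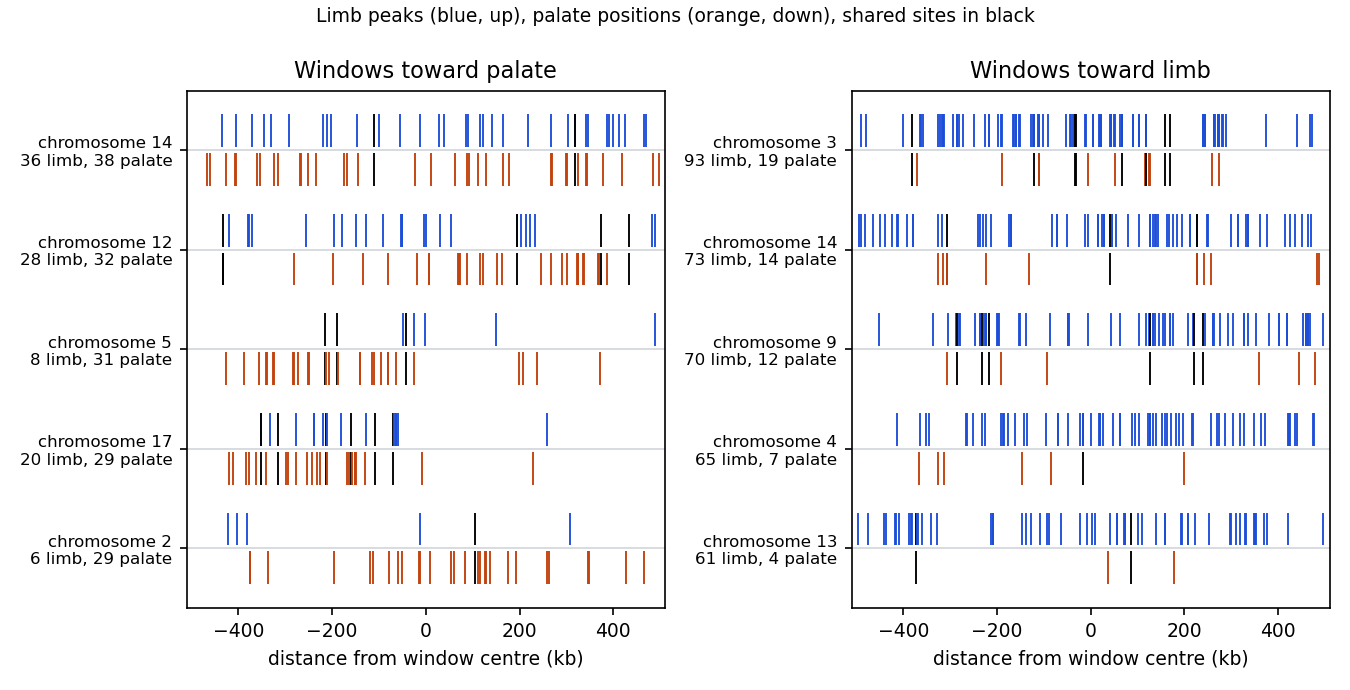
Positions of limb Shox2 peaks (blue ticks, above each line) and palate Shox2 positions (orange ticks, below) in the 5 windows named toward palate (left) and toward limb (right), as distance in kb from the window's centre; shared sites are black. Chromosome 14 on the left has 36 limb peaks and 38 palate positions with 2 palate positions shared, and chromosome 13 on the right has 61 limb peaks and 4 palate positions.

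The windows richest in shared positions were dense in both tissues. On chromosome 14, 24 to 25 Mb held 11 shared among 23 palate positions and 28 limb peaks. On chromosome 4, 13 to 14 Mb held 11 among 20 palate positions and 68 limb peaks. On chromosome 18, the neighbouring windows of 54 to 55 Mb and 55 to 56 Mb had 10 shared positions each, among 18 and 22 palate positions and 70 and 75 limb peaks. The window of 66 to 67 Mb on chromosome 3 followed with 9. In these windows 45.5 to 55.6% of palate positions were shared, against 14.2% of the list. The windows were picked by that count.

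Palate site density followed the density of limb Pbx peaks more closely than that of limb Shox2 peaks. Over 2483 windows of 1 Mb with any Shox2 site, Spearman's rank correlation of palate counts was 0.75 with Pbx counts and 0.33 with limb Shox2 counts, and that of limb Shox2 with Pbx counts was 0.29. These are descriptions across neighbouring windows, which share libraries and the mappability of the genome. After removal of every site that overlapped a site of another list, the values were 0.67, 0.13 and -0.04. The relation of palate with Pbx was thus also present among sites that no other list overlaps. Such removal takes out sites that lie together, which can by itself lower each value, so the lower values show no absence of a relation. Windows with 0 to 4 Pbx peaks held a median of 1 palate position and 6 limb Shox2 peaks. Windows with 10 to 14 held 6 and 14, and those with 30 to 82 held 13 and 13. The palate median was thus higher at every step of Pbx density, and palate positions went from 21.9 per 100 limb Shox2 peaks to 77.7. The limb median stayed at 13 or 14 from 5 Pbx peaks on. The share of palate positions that were shared changed little, between 12.6% and 16.3% over these classes.

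**Figure D4:**
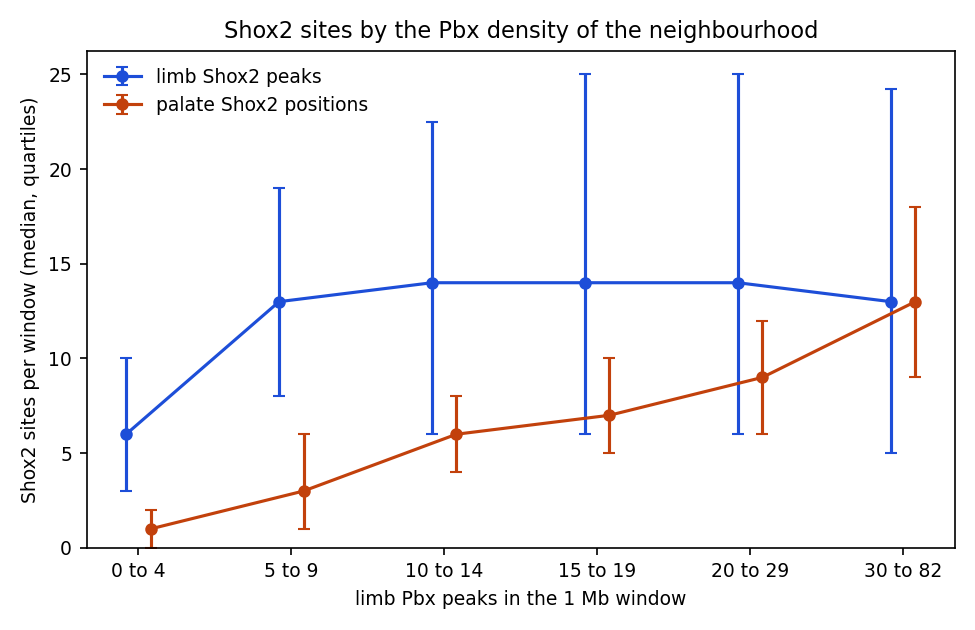
Shox2 sites per 1 Mb window (y axis; medians with quartiles as bars) in windows grouped by their number of limb Pbx peaks (x axis), for limb Shox2 peaks (blue) and palate Shox2 positions (orange). Palate medians go from 1 to 13 sites and limb medians from 6 to 14 and then to 13.

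Single sites were also compared by Pbx. Of the shared palate positions, 782 (36.4%, interval 34.3 to 38.4%) lay inside a limb Pbx peak, against 1572 (12.1%, interval 11.6 to 12.7%) of the palate-only positions. Shared positions lie in limb peaks by definition, and the Pbx peaks come from the same tissue. Of the 31786 limb-only peaks, 8218 also overlapped a Pbx peak, counted over the whole width of the limb peak. Pbx peaks cover 1.33% of the span. Within 100 kb, palate-only positions had a mean of 4.87 limb Pbx peaks (median 4) and limb-only peaks 3.87 (median 3). The mean was higher around palate-only positions on 19 of 20 chromosomes, the exception being chromosome 14. Within 50 kb both medians were 2, with means of 2.52 and 2.13. Shared palate positions had a mean of 4.9995 Pbx peaks, above the palate-only mean on 14 chromosomes. These counts include a Pbx peak the position itself lies in, which 36.4% of shared and 12.1% of palate-only positions have. The gap between the means is smaller than this difference in own peaks. Without the own peaks the shared mean would thus be the lower. Within 500 kb, with own peaks included, the means were 20.3 around shared and 21.5 around palate-only positions. Shared limb peaks had a mean of 4.998, above the limb-only mean on 20 of 20 chromosomes. Limb-only peaks thus had the lowest mean Pbx count of the 4 classes.

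Shared and palate-only positions had alike palate neighbourhoods and unlike limb neighbourhoods. Within 100 kb, and not counting the site itself or the limb peak it lies in, shared positions had a mean of 2.66 palate neighbours and palate-only positions 2.58, with the shared mean higher on 11 of 20 chromosomes. They had 6.17 and 3.72 limb Shox2 peaks, and this difference had the same direction on all 20 chromosomes. No other limb peak lay within 100 kb of 6.60% of shared and 20.01% of palate-only positions. On the limb side, shared peaks had 2.65 other palate positions within 100 kb and limb-only peaks 1.75, again with the same direction on all 20 chromosomes. Their limb neighbours numbered 6.16 and 5.64, with the opposite direction on chromosomes 7, 10, 11 and 12. Since a position in a neighbourhood dense in limb peaks has more peaks to lie in, part of these differences follows from how shared sites were defined.

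Across chromosomes, the palate list weighed toward gene-dense chromosomes relative to the limb list. Gene density was taken as the number of protein-coding genes that RefSeq assigns to each chromosome in its GRCm38.p6 table, per Mb up to the last site in the files. Only the chromosome of each gene was used, because the builds differ. Chromosome 11, with 13.2 genes per Mb, held 5.93% of palate positions and 3.84% of limb peaks, and chromosome 7, with 13.3 genes per Mb, held 5.26% and 3.41%. Chromosome 3, with 6.16 genes per Mb, held 5.84% and 8.13%, and chromosome 16, with 6.91, held 3.47% and 4.43%. The 6 autosomes with the most genes per Mb (2, 7, 9, 11, 17 and 19) all had a palate-to-limb ratio of shares above 1, from 1.13 to 1.55. The 6 with the fewest (1, 3, 12, 13, 14 and 18) were all below 1, from 0.718 to 0.966. Over the 19 autosomes the rank correlation of this ratio with gene density was 0.82.

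Limb Shox2 peaks were spread less evenly over the autosomes than palate positions. Over the 19 autosomes, the rank correlation with gene density was 0.31 for palate positions per Mb, which ranged from 5.11 to 7.35, and -0.75 for limb Shox2 peaks per Mb, which ranged from 7.58 to 17.3. For limb Pbx peaks per Mb it was 0.54. The ratio of Pbx to limb Shox2 shares tracked gene density as the palate ratio did (rank correlation 0.84), and both ratios have the limb Shox2 list as their denominator. The ratio of palate to Pbx shares went the other way, with a rank correlation of -0.63 with gene density, so relative to Pbx the palate list leaned toward gene-poor autosomes. The shared share of palate positions was lowest on chromosome 11 (9.72%, interval 7.86 to 11.9%) and highest on chromosome 18 (20.5%, interval 17.3 to 24.0%). It went up with limb peaks per Mb (rank correlation 0.85) and down with gene density (-0.78). X had the lowest ratio, 0.41: with 5.80 genes per Mb it held 0.848% of palate positions and 2.08% of limb peaks. Its palate-only positions had a median of 85.1 kb to the nearest limb peak, against 14.7 to 43.7 kb on the autosomes.

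**Figure D5:**
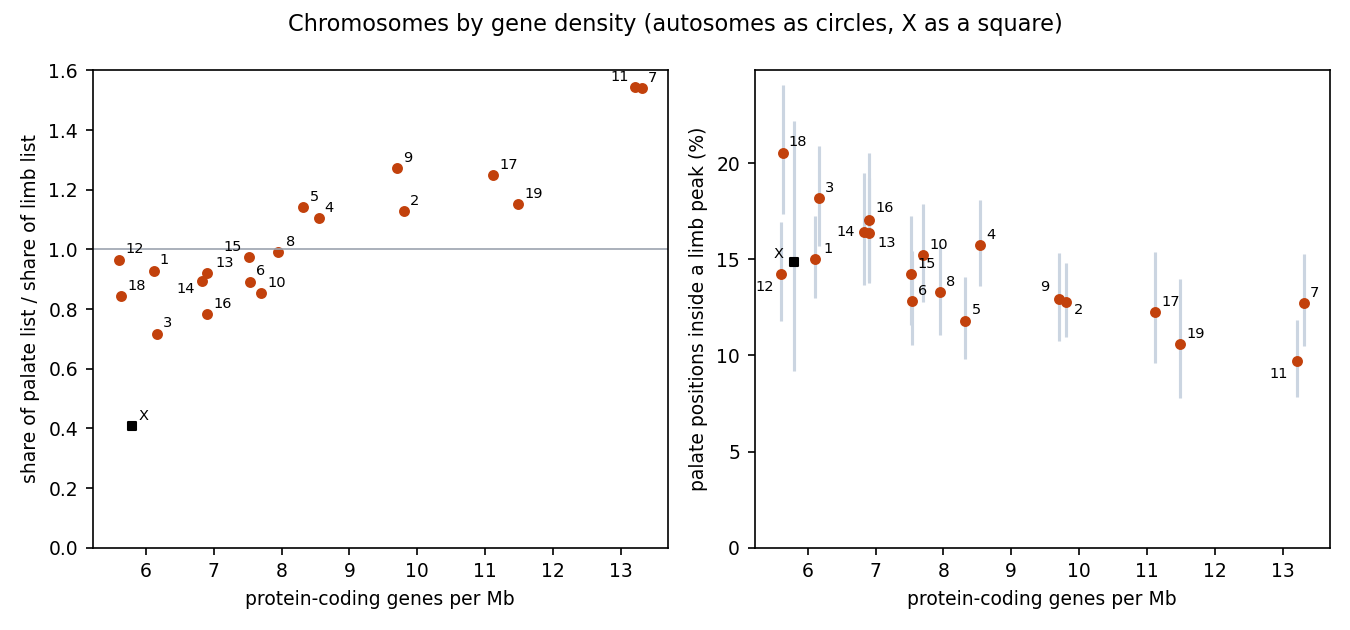
Each chromosome's ratio of its share of the palate list to its share of the limb list (left) and its percentage of palate positions inside a limb peak with 95% binomial intervals (right), against protein-coding genes per Mb. Chromosomes 7 and 11 lie highest on the left, at 1.54 and 1.55, and X lowest, at 0.41; on the right chromosome 18 is highest at 20.5% and chromosome 11 lowest at 9.72%.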

How the data were processed

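ChIP-seq peak lists of Shox2 in palate and limb and of Pbx in limb, all at E12.5, were used, with 1 library each. Per the submitters' processing notes, the authors used Bowtie and MACS2 with mouse build mm9. Versions, settings and the cut-off of each list were not given in the sources used here. Each of the deposited lists holds chromosome, start and end per site, with no signal, score or p-value, so depth is unknown. Whether the authors filtered the lists against the untagged control is not stated. The palate list holds positions of 1 bp on 20 chromosomes, plus 3 on other sequences, which were left out of windows.

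Distances run from edge to edge, and between centres within 1 list. Neighbours were counted between centres. Clusters were chained over gaps of up to 20 kb, and windows of 1 Mb with at least 10 sites were called past 2-fold. The sites named are the top 5 by rule: clusters by size, windows by shared, palate or limb sites. Members, lists and rules were chosen with earlier results of these data known. The code was tested on simulated data. Python 3.11.15, NumPy 2.4.6, pandas 2.3.3, SciPy 1.17.1 and matplotlib 3.10.9 were used.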

Additional observations from a re-analysis of the deposited data

How the results depend on the processing

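The share of palate positions inside a limb peak was 9.22% with the first 15091 limb peaks, 10.45% with limb peaks set to 200 bp and 16.6% with limb peaks widened by 100 bp. Palate-only positions within 10 kb of a limb peak came to 17.0%, 32.5% and 27.85% under the same changes, and to 19.3% within 5 kb and 65.0% within 50 kb. Limb-only peaks within 10 kb of a palate position came to 18.95% at 200 bp and 16.3% when widened, and to 10.8% within 5 kb and 48.55% within 50 kb. Palate positions in clusters came to 8.11% with gaps of 10 kb, 41.4% with 50 kb and 4.33% in clusters of 5 or more. Limb peaks in clusters came to 24.1%, 69.3% and 19.2%, and to 19.7% and 17.7% with the first and with evenly taken 15091 peaks. Windows past 2-fold numbered 150 toward palate and 234 toward limb with at least 20 sites, and 258 and 291 at 2 Mb. With the first 15091 limb peaks, 314 passed toward palate and 290 toward limb, which turns their order. Pbx peaks near palate-only positions had medians of 2 within 50 kb and 19 within 500 kb, and near limb-only peaks 2 and 14, so the medians were equal within 50 kb. The rank correlation of palate with limb counts was 0.131 without overlapping sites, a choice made after seeing the data. Leaving out sites that lie together can by itself lower it. Wider extents, shorter lists, other distances and fewer windows move these values by construction. No paired analysis was possible because palate and limb have 1 library each. For the same reason no replicate was left out. The files give no depth, so sites that a list lacks may have gone undetected.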
